A study of Saccharomyces cerevisiae with 18 samples.

Results

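The nuclear genes for 34 subunits of the oxidative phosphorylation machinery of budding yeast were followed across 3 strains with and without Congo Red. They were taken by name as the probe sets that the platform annotation maps to a fixed list of respiratory chain and ATP synthase genes, out of 5659 features tested. All 34 had 1 probe set each and all 34 passed the filter on low values. The list holds 4 subunits of complex II, 9 of complex III, 1 cytochrome c, 8 of complex IV and 12 of ATP synthase, and the genes lie on 13 chromosomes. Subunits encoded by the mitochondrial genome were not analysed here.

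The strain background was BY4741, a haploid laboratory strain of mating type a that carries deletions in HIS3, LEU2, MET17 and URA3. The 3 genotypes were the wild type, the rlm1 mutant and the swi3 mutant. Rlm1 is the transcription factor that the cell wall integrity MAP kinase acts on, and Swi3 belongs to SWI/SNF, a complex that moves nucleosomes. Growing cultures were kept for 4 h either without the dye or with 30 µg/ml Congo Red, which binds cell wall polymers and disturbs wall assembly. Each of the 6 groups had 3 biological samples with 1 Affymetrix array each, numbered 1 to 3 in their titles. The labels do not say how the mutants were made or whether a strain was 1 clone.

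In mitochondria, succinate dehydrogenase (complex II), the cytochrome bc1 complex (complex III) and cytochrome c oxidase (complex IV) pass electrons to oxygen, with cytochrome c as the carrier between the last pair, and ATP synthase uses the resulting proton gradient to make ATP. Budding yeast lacks a proton-pumping complex I and feeds electrons in through single-protein NADH dehydrogenases instead. On glucose these genes are held low by glucose repression, and the activator Hap4 is best known for raising them when yeast shifts to respiration.

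All values are deposited log2 probe set levels, and a difference of 1 on that scale is a factor of 2. The array medians were 10 to 10.04 in the wild type and 9.58 to 9.70 in swi3. In rlm1 the arrays numbered 1 had medians of 9.27 and 9.29, against 9.98 to 10.02 on the other 4, and their 3' to 5' difference over control probe sets was 1.15 and 1.03, against 0.76 to 0.86 on those 4. In swi3 that difference was 0.80 to 1.26, and in the wild type 0.72 to 0.81. RLM1 stood at 4.53 to 5.05 on the rlm1 arrays and at 9.16 to 10.61 on all others, and SWI3 at 3.16 to 3.51 on the swi3 arrays and at 8.39 to 9.87 elsewhere. The 7 mating type a markers averaged 9.91 to 12.2 per array, and the 4 alpha markers 5.42 to 6.98. Among the genes deleted in BY4741, URA3 had group means of 4.03 to 4.52, whereas HIS3 had 10.8 to 11.3. The his3 allele of this background is known as an internal deletion that leaves part of the gene, and where the probes lie was not tested. MET17, also deleted in BY4741, was called lower in swi3 than in the wild type (limma). The difference was -0.85 untreated (adjusted p = 0.0075) and -0.68 with the dye (adjusted p = 0.025). Why a deleted gene was called lower was not tested, and it bears on reading other lower calls in swi3.

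The main difference among the subunit genes lay between swi3 and the wild type. In untreated cells 7 of the 34 subunit genes were higher in swi3 and 0 were lower, whereas among all features 3.8% were called higher and 22.4% lower (limma, Benjamini-Hochberg adjusted p under 0.05 over all features). Those 7 were QCR2, QCR6 and QCR7 of complex III, COX7 of complex IV, and ATP2, ATP3 and ATP14 of ATP synthase. The median change of the 34 was 0.40, and that of all features was -0.41. The difference was positive for 32 of the 34, the exceptions being CYT1 and ATP15. With Congo Red, 5 were higher (COR1, QCR6, QCR7, ATP3 and ATP14) and 0 lower, with 3.23% of all features called higher and 18.9% lower. The median of the 34 was then 0.33 against -0.37 for all features, and again 32 were positive, CYT1 and ATP15 being negative.

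The median level of the 34 genes on an array shows the same contrast before any fit. It was 11.09 to 11.36 on the 6 wild-type arrays, 10.54 to 11.22 on the 6 rlm1 arrays and 11.43 to 11.78 on the 6 swi3 arrays. Relative to the median of its own array it was 1.07 to 1.32 higher in the wild type, 1.17 to 1.31 in rlm1 and 1.85 to 2.08 in swi3. The swi3 arrays did not overlap the others on either scale. The marker lists had medians below 0 in swi3, as all features together had. The 4 alpha markers averaged 6.78 to 6.98 per array in the wild type and 5.42 to 5.72 in swi3, with 4 of 4 called lower in both media, and the 8 sporulation markers averaged 6.25 to 6.63 and 4.54 to 5.67, with 6 of 8 called lower. Of the 7 mating type a markers 4 were called lower untreated and 3 with the dye. Of all features 22.4% and 18.9% were called lower, and the 3 bins of lowest signal, of 10 equal bins, had median differences of -0.90 to -0.58 untreated. The untreated medians were -1.36 for the alpha, -1.22 for the sporulation and -1.15 for the a markers. The part of these shifts, of the array medians and of the 3' to 5' differences in the subunit result was not tested. The RNA came from whole cultures, in which more cells with a transcript and more transcript per cell cannot be told apart.

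**Figure D1:**
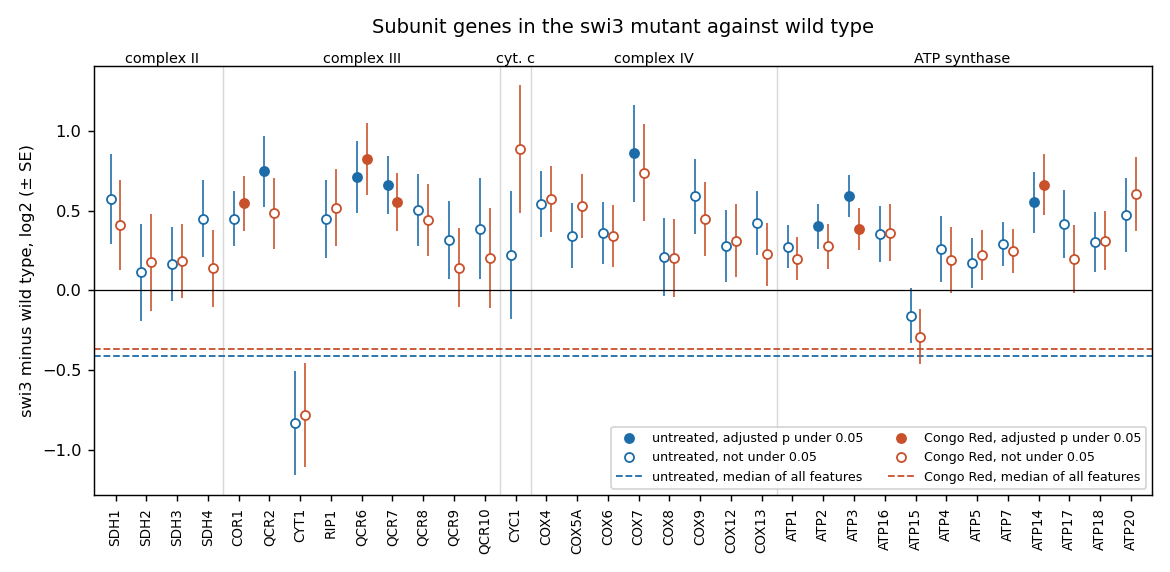
Difference between swi3 and wild type for each subunit gene on the log2 scale, untreated in blue and with Congo Red in orange; points are differences of group means (n = 3 arrays a group), bars ± SE of the fit, filled points have an adjusted p under 0.05, and dashed lines mark the median of all features. All subunit genes except CYT1 and ATP15 lie above 0, while the medians of all features lie at -0.41 and -0.37.

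Complex II takes electrons from succinate. Its swi3 arrays lay above all wild-type arrays for 1 of its 4 genes untreated and 0 of 4 with the dye. The shares of all features were 8.43% and 8.04%. SDH1, its flavoprotein, read 10.60, 10.60 and 10.17 on the untreated wild-type arrays and 11.27, 11.22 and 10.60 on the untreated swi3 arrays. SDH2, the iron-sulphur subunit, read 10.32, 10.25 and 9.67 against 10.35, 10.39 and 9.84. In both genes the array numbered 3 was the low one in each group, and the groups touched or overlapped. The differences were 0.57 ± 0.28 (SE, n = 3) for SDH1 and 0.11 ± 0.30 for SDH2, with adjusted p of 0.13 and 0.77. The membrane anchors SDH3 and SDH4 differed by 0.17 and 0.45, and 0 of the 4 genes passed the test in either medium. With Congo Red the 4 differences were 0.14 to 0.41. Set against the wild-type array of the same number, untreated swi3 was higher by 0.67, 0.62 and 0.43 for SDH1 and by 0.48, 0.45 and 0.42 for SDH4. SDH2 was higher by 0.03, 0.14 and 0.17 and SDH3 by 0.11, 0.27 and 0.12, so all 4 genes were positive in all 3 comparisons, as they were with the dye. The labels do not say what a number means and the arrays were not taken as pairs across strains, so this is a description only.

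Complex III held 3 of the 7 genes called in untreated cells and 3 of the 5 called with the dye. QCR2, a core subunit, stood at 11.02, 10.97 and 10.66 in the untreated wild type and at 11.82, 11.72 and 11.35 in untreated swi3. QCR6, a small acidic subunit, stood at 10.72, 10.99 and 10.67 against 11.31, 11.68 and 11.53. QCR7, another small subunit, stood at 11.80, 11.74 and 11.79 against 12.24, 12.60 and 12.47. For each of these the lowest swi3 array was above the highest wild-type array. The differences were 0.75 ± 0.22 (SE, n = 3, adjusted p = 0.025) for QCR2, 0.71 ± 0.23 (adjusted p = 0.033) for QCR6 and 0.66 ± 0.18 (adjusted p = 0.017) for QCR7. COR1, the other core subunit, rose above the threshold in the treated cells, where it read 10.95, 11.14 and 11.25 in the wild type and 11.48, 11.81 and 11.69 in swi3. Its difference was 0.55 ± 0.17 (adjusted p = 0.034), with no overlap, and without the dye it was 0.45 (adjusted p = 0.064). With Congo Red, QCR6 differed by 0.83 ± 0.23 (adjusted p = 0.018) and QCR7 by 0.55 ± 0.18 (adjusted p = 0.041), while QCR2 differed by 0.48 and did not pass (adjusted p = 0.12).

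RIP1, the Rieske iron-sulphur protein, differed by 0.45 untreated and 0.52 with the dye, without passing the test (adjusted p = 0.16 and 0.13). The array also carries control probe sets for RIP1 that were kept out of the fit and give a second reading of this gene. Its 3' control probe set had a mean of 9.94 ± 0.05 (SD, n = 3) without the dye in the wild type and of 10.51 ± 0.16 in swi3. The 3', middle and 5' control sets were higher in swi3 by 0.57, 0.19 and 0.54 untreated and by 0.78, 0.36 and 0.67 with Congo Red. The arrays did not overlap in any of the 6 comparisons. Among all features 8.43% untreated and 8.04% with the dye had all swi3 arrays above.

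CYT1, the cytochrome c1 that hands electrons to cytochrome c, went the other way. In the untreated wild type it read 9.63, 9.84 and 9.89, and in untreated swi3 8.64, 9.22 and 9.0. With Congo Red the wild type read 9.84, 10.09 and 10.13 and swi3 8.98, 9.44 and 9.30. All 3 swi3 arrays lay below all 3 wild-type arrays in both media. Of all features 66.2% untreated and 58.4% with the dye did the same. The CYT1 difference was -0.83 ± 0.33 (SE, n = 3) untreated and -0.78 ± 0.33 with the dye. It missed the threshold in both (adjusted p = 0.070 and 0.095). Relative to the median of all features it was -0.42 and -0.41. In rlm1 CYT1 read 9.56, 10.80 and 10.80 untreated, so the arrays numbered 2 and 3 lay well above the wild type while the array numbered 1 lay below it. This gene therefore had a wide spread in the shared fit. Without both rlm1 arrays numbered 1 the swi3 differences passed the test (adjusted p = 0.00030 untreated and 0.00054 treated). In that fit 64.2% of all features were called lower in swi3 untreated and 59% with the dye. After quantile normalization the CYT1 differences were smaller, -0.39 and -0.41, and did not pass (adjusted p = 0.11 and 0.091). With arrays centred they were -0.47 and -0.44 and did not pass either (adjusted p = 0.054 and 0.066).

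CYC1, the main form of cytochrome c, read 10.58, 10.63 and 10 in the untreated wild type and 10.50, 10.93 and 10.44 in untreated swi3, which overlap. With Congo Red it read 10.46, 10.54 and 9.41 in the wild type and 11.02, 11.32 and 10.73 in swi3, which do not. The differences were 0.22 ± 0.40 and 0.89 ± 0.40 (SE, n = 3), and neither passed the test (adjusted p = 0.67 and 0.12). Without both rlm1 arrays numbered 1 the treated difference passed (adjusted p = 0.013). In that fit 8.09% of all features were called higher in treated swi3.

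In complex IV all 8 nuclear subunits had positive differences in both media. COX7, a small membrane subunit, read 10.88, 10.63 and 11.10 in the untreated wild type and 11.39, 11.81 and 11.99 in untreated swi3, with no overlap. Its difference of 0.86 ± 0.30 (SE, n = 3) was the largest of the 34 genes in untreated cells and passed the test narrowly (adjusted p = 0.049), while with Congo Red it was 0.74 (adjusted p = 0.089). COX4, COX9 and COX13 differed by 0.54, 0.59 and 0.42 untreated, and none of the 3 passed (adjusted p of 0.065, 0.072 and 0.12). COX5A, the subunit V form used with oxygen, differed by 0.34 and 0.53 and COX6 by 0.36 and 0.34. COX8 differed by 0.21 and 0.20 and COX12 by 0.28 and 0.31. The swi3 arrays lay above all wild-type arrays for 7 of the 8 genes untreated and 6 of the 8 with the dye. The shares of all features were 8.43% and 8.04%.

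ATP synthase supplied 3 of the 7 genes called in untreated cells. ATP3, the gamma subunit that forms the rotating shaft, read 11.95, 11.91 and 11.85 in the untreated wild type and 12.54, 12.50 and 12.45 in untreated swi3. ATP14, a peripheral stalk subunit, read 10.90, 10.93 and 10.86 against 11.36, 11.54 and 11.45. ATP2, the catalytic beta subunit, read 13.00, 12.89 and 12.86 against 13.38, 13.30 and 13.28. The arrays within a group lay close together and the groups did not overlap. ATP3 was higher by 0.59 ± 0.13 (SE, n = 3, adjusted p = 0.0052), ATP14 by 0.55 ± 0.19 (adjusted p = 0.046) and ATP2 by 0.40 ± 0.14 (adjusted p = 0.047). With Congo Red, ATP3 read 12.24, 12.24 and 12.23 in the wild type and 12.64, 12.62 and 12.60 in swi3, a difference of 0.38 (adjusted p = 0.048). ATP14 differed by 0.66 in treated cells (adjusted p = 0.023) and ATP2 by 0.28, which did not pass (adjusted p = 0.16).

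The other F1 subunits ATP1 (alpha) and ATP16 (delta) differed by 0.27 and 0.35 untreated, without passing. The peripheral stalk genes ATP4, ATP5 and ATP7 differed by 0.26, 0.17 and 0.29, and the membrane subunits ATP17, ATP18 and ATP20 by 0.42, 0.31 and 0.48, again without passing. ATP15, the epsilon subunit, was the exception of this complex. It read 12.08, 12.21 and 12.16 in the untreated wild type and 11.93, 11.94 and 12.10 in untreated swi3, which overlap. With Congo Red it read 12.43, 12.36 and 12.54 against 12.14, 12.02 and 12.30, with all swi3 arrays below. In that medium 58.4% of all features had all swi3 arrays below. The ATP15 differences were -0.16 ± 0.17 and -0.29 ± 0.17 (SE, n = 3, adjusted p = 0.47 and 0.22). The sign of the ATP15 difference depended on the scaling: with arrays centred on their medians it was 0.21 untreated and 0.05 treated.

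**Figure D2:**
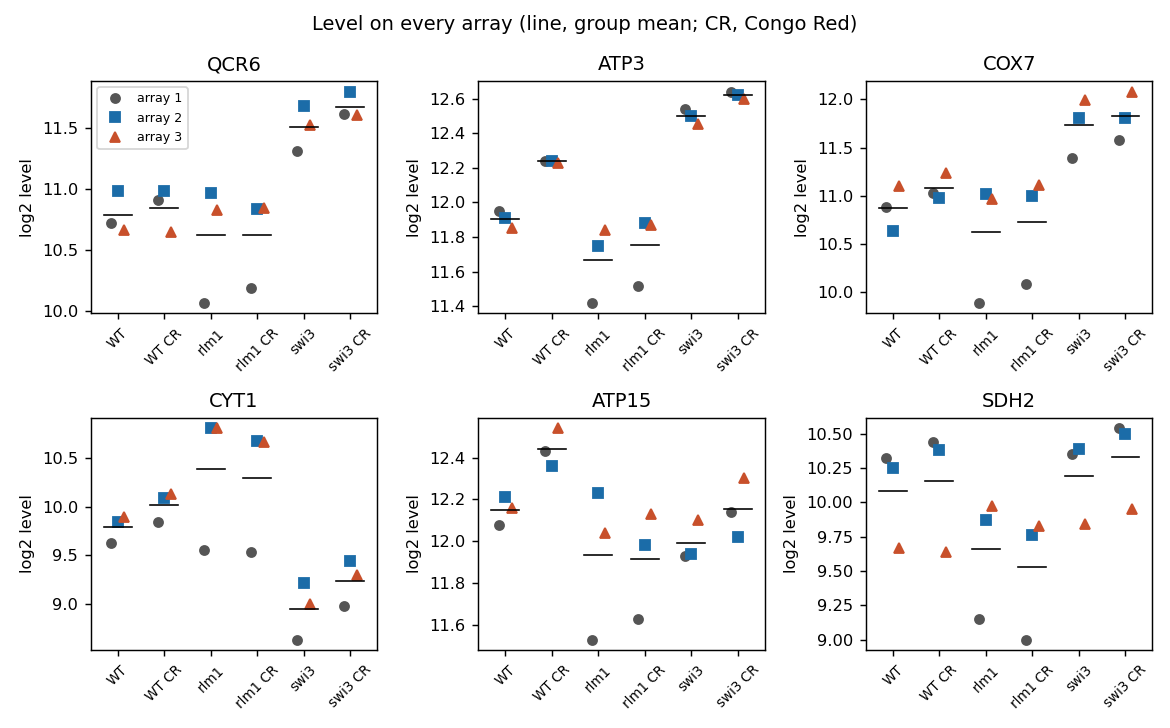
Level of 6 subunit genes on every array, in log2 units, by strain without and with Congo Red (CR); symbols mark the array number in the sample title and lines the group mean of 3 arrays. QCR6, ATP3 and COX7 stand higher on all swi3 arrays than on the wild-type arrays, CYT1 stands lower, and the rlm1 arrays numbered 1 lie below the other rlm1 arrays in every panel.

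Over the 34 genes, swi3 arrays lay above all wild-type arrays for 24 genes and below them for 1 in untreated cells, against 8.43% and 66.2% of all features. In treated cells these counts were 21 and 2, against 8.04% and 58.4%. Between arrays of the same number, swi3 was higher in all 3 comparisons for 30 genes untreated and 31 with the dye, against 10.8% and 11.7% of all features. It was lower in all 3 for CYT1 and ATP15 in both media, against 75.3% and 72% of all features. Same-numbered arrays of the wild type and swi3 were not taken as pairs, so these counts are a description only. Of the 34 differences 29 were among the top 10% of all features untreated and 28 with the dye. The differences without and with the dye had a Pearson correlation of 0.83 over the 34 genes and of 0.905 over all 5659 features, which is given as a description because genes share arrays.

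The call counts moved with the arrays in the fit, which share 1 estimate of the spread. Untreated, 1 gene was called without the wild-type or the swi3 array numbered 2 and 14 without the rlm1 array numbered 1. With the dye, 0 were called without the swi3 array numbered 2 and 13 without the untreated rlm1 array numbered 1. Without both rlm1 arrays numbered 1, 27 subunit genes were higher and 1 lower in untreated swi3, against 8.04% and 64.2% of all features. In treated cells 22 were higher and 2 lower, against 8.09% and 59% of all features. CYT1 was lower in both media and ATP15 in treated cells. SDH2, SDH3, CYC1, COX12, ATP15 and ATP4 did not pass untreated. After a further quantile normalization of the arrays 29 were higher and 0 lower in each medium, with 14% of features higher untreated and 16.8% with the dye, and the medians of the 34 were 0.62 and 0.54. With arrays centred on their medians they were 0.76 and 0.67.

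Probe sets of low signal fell more in swi3 than those of high signal, so the subunit genes were also set beside features of similar signal. In untreated cells the median difference rose from -0.90 in the lowest of 10 equal bins of features by mean signal to -0.11 in the highest bin. Among the 2660 features within the signal range of the 34 genes, these genes included, the median was -0.30 and 18.2% were above 0. With the dye these values were -0.25 and 22.9%. The subunit genes are short, with a median gene length of 454.5 bases in assembly R64 against 1238 for all features with a length. In the same signal range 216 features, subunit genes included, were no longer than that median. Their difference had a median of -0.14 and was above 0 for 34.7%. The 17 subunit genes with that length had a median of 0.42.

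**Figure D3:**
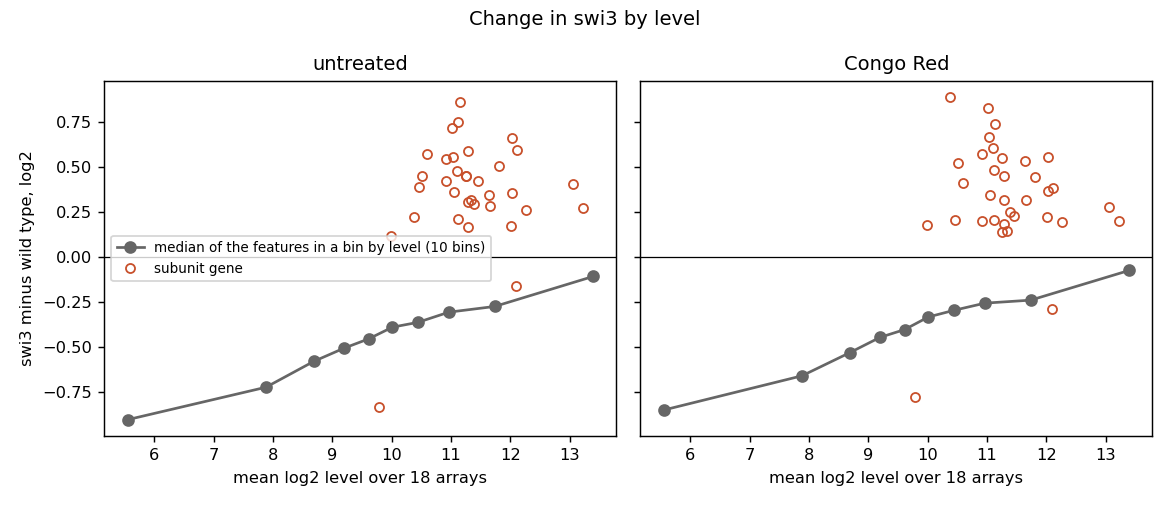
Difference between swi3 and wild type (log2) against the mean log2 signal over 18 arrays, untreated on the left and with Congo Red on the right. Grey points are medians of features in 10 bins by signal, placed at the middle of each bin's range, and open circles are the 34 subunit genes, of which 32 lie above 0 in each panel.

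Other genes of mitochondrial respiration were read from lists of the same fit. The shares to set beside their counts are those of all features, 3.8% higher and 22.4% lower untreated and 3.23% and 18.9% with the dye. Of 8 regulators 3 were higher in untreated swi3. HAP4, the activating subunit of the complex that drives respiratory genes, read 8.79, 8.69 and 9.11 in the wild type and 9.95, 10 and 10.22 in swi3, with no overlap. It was higher by 1.19 ± 0.39 (SE, n = 3, adjusted p = 0.036) untreated, and by 1.04 with the dye, where it did not pass (adjusted p = 0.065). ROX1, a repressor of hypoxic genes, was higher by 1.03 and 1.16, and MIG1, a glucose repressor, by 0.84 and 0.93, all with adjusted p of at most 0.0043. CYC7, the second cytochrome c, usually low with oxygen, differed by 1.67 and 1.79 without passing (adjusted p = 0.11 and 0.10). The hypoxic subunit COX5B differed by 0.27 and -0.06 (adjusted p = 0.64 and 0.92).

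The mitochondrial carriers gave 5 higher and 1 lower of 13 in untreated swi3 and 4 higher and 1 lower with the dye, with a median of 0.25 untreated. ODC1, an oxodicarboxylate carrier, was higher by 1.81 and 1.34, the ADP/ATP carrier AAC1 by 1.34 and 1.26, and the dicarboxylate carrier DIC1 by 0.97 and 0.77. CTP1, the citrate carrier, was lower at -1.21 and -0.81. In the citric acid cycle 2 of 13 genes were higher untreated, namely ACO1 (aconitase) by 0.78 and MDH1 (malate dehydrogenase) by 0.56. With the dye those 2 were again higher, by 0.67 and 0.62, and the citrate synthase genes CIT1 and CIT3 were lower, at -0.95 and -1.25. The lower treated CIT1 was not particular to swi3, as treated rlm1 was also lower, at -1.04 (limma, adjusted p = 0.0059). In the wild type CIT1 rose with the dye by 0.86 (adjusted p = 0.028). CIT3 did not pass after quantile normalization (adjusted p = 0.082). Among 8 haem synthesis genes HEM13 and HEM14 were higher untreated, by 0.94 and 0.48, and HEM3 was lower at -1.61, a call that was lost under both rescalings.

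Lists of genes that build the complexes had medians below 0 in untreated swi3. Of 41 assembly factors 2 were higher and 5 lower, against 3.8% and 22.4% of all features, with a median of -0.41, equal to that of all features. CYC3, the enzyme that attaches haem to cytochrome c, was higher by 1.00 and COA2, a cytochrome oxidase assembly factor, by 1.34. TCM62 was lower at -0.69. SHY1 at -0.87 and ATP10 at -1.64 were also lower, calls that quantile normalization removed. Of 33 mitochondrial ribosomal genes 0 were higher and 1 lower, with a median of -0.41, and of 10 ubiquinone synthesis genes 0 were higher and 1 lower. After centring, the medians of these 3 lists lay between -0.06 and -0.04 and that of the subunits at 0.76. Among isoforms and accessory subunits INH1, the inhibitor of the ATP synthase F1 part, was higher by 1.80 and ATP19, a subunit of the ATP synthase dimer, by 0.72 in untreated swi3. SHH4, a paralogue of SDH4, was lower at -1.13, and SHH3, a paralogue of SDH3, at -0.87, which became 0.01 after quantile normalization. Of 20 glycolytic and fermentation genes 2 were higher, the hexose kinases GLK1 and HXK1 by 0.95 and 0.84, and 1 was lower, the enolase ENO2 at -0.34, which became 0.03 after centring.

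The second question of the design is what Congo Red did within each strain. In the wild type 0 of the 34 subunit genes passed the test, with 2.05% of all features called, and 1 of the 34, ATP3, had an unadjusted p under 0.05. The median change was 0.15, against -0.01 for all features, and 31 of the 34 changes were positive, the exceptions being CYC1, COX5A and ATP18. All 3 treated arrays lay above all 3 untreated arrays for 13 genes and below for 0. For all features these shares were 19% and 18.1%, so separation of this kind was common in the wild type in both directions.

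The members with the largest changes lay in complex III and complex II. QCR10, a small subunit of complex III, read 10.21, 10.25 and 10.21 untreated and 11.03, 10.58 and 10.66 with the dye. SDH4 read 11.17, 11.15 and 10.80 untreated and 11.75, 11.61 and 11.12 treated. QCR2 read 11.02, 10.97 and 10.66 untreated and 11.41, 11.41 and 11.17 treated. The groups separated for QCR10 and QCR2 and overlapped for SDH4, where the arrays numbered 3 were low in both. The changes were 0.53 ± 0.32 (SE, n = 3) for QCR10, 0.45 ± 0.24 for SDH4 and 0.45 ± 0.22 for QCR2. ATP3 changed from 11.95, 11.91 and 11.85 to 12.24, 12.24 and 12.23, a change of 0.33 ± 0.13 with an adjusted p of 0.31. CYC1 differed by -0.27 ± 0.40 and COX5A by -0.16 ± 0.20.

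The calls in the wild type depended on how the spread was estimated. With each strain's arrays paired by their number, 12 subunit genes were higher and 1 was lower, against 16.8% and 16% of all features. These were SDH4, QCR2, CYT1, QCR9, QCR10, COX7, ATP1, ATP3, ATP15, ATP4, ATP7 and ATP17, and the lower gene was COX5A. In that fit QCR2 changed by 0.45 (adjusted p = 0.0013), ATP4 by 0.34 (adjusted p = 0.0015) and COX5A by -0.16 (adjusted p = 0.043). Without both rlm1 arrays numbered 1, and with no pairing, QCR2, QCR10, ATP3, ATP15 and ATP7 were higher, which is 5 of 34 against 10.5% of all features. Within the pairs, 23 of the 34 genes were higher in all 3 and 2 were lower in all 3, namely CYC1 and COX5A, whereas 31.3% of all features were higher in all 3 and 33.8% lower.

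In swi3, 0 of the 34 genes passed for Congo Red, with 0.159% of all features called, and 0 of the 34 had an unadjusted p under 0.05. The median change was 0.145 against 0.03 for all features, and 32 changes were above 0, with ATP2 and ATP18 at 0. Treated arrays separated upward for 6 genes (QCR10, COX4, ATP3, ATP5, ATP7 and ATP14) and downward for 0, against 7.67% and 3.22% of all features. With arrays paired by number, CYT1, CYC1, ATP4, ATP7, ATP14 and ATP20 were higher, which is 6 of 34 against 5.92% of all features. CYT1 then changed by 0.29 (adjusted p = 0.0084) and CYC1 by 0.40 (adjusted p = 0.047). All 3 pairs were positive for 24 of the 34 genes, against 23.5% of all features.

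In rlm1, 0 of the 34 genes passed, with 0.0884% of all features called, and 0 had an unadjusted p under 0.05. The median change was 0.02, with 22 positive and 12 negative. No subunit gene separated the treated from the untreated arrays, which 1.01% of all features did upward and 0.671% downward. QCR10 read 9.20, 10.35 and 10.56 untreated and 9.51, 10.46 and 10.62 with the dye. The array numbered 1 stood far below the others in both media, so each group spanned more than the change between them. With pairing, 0 of the 34 passed in this strain.

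**Figure D4:**
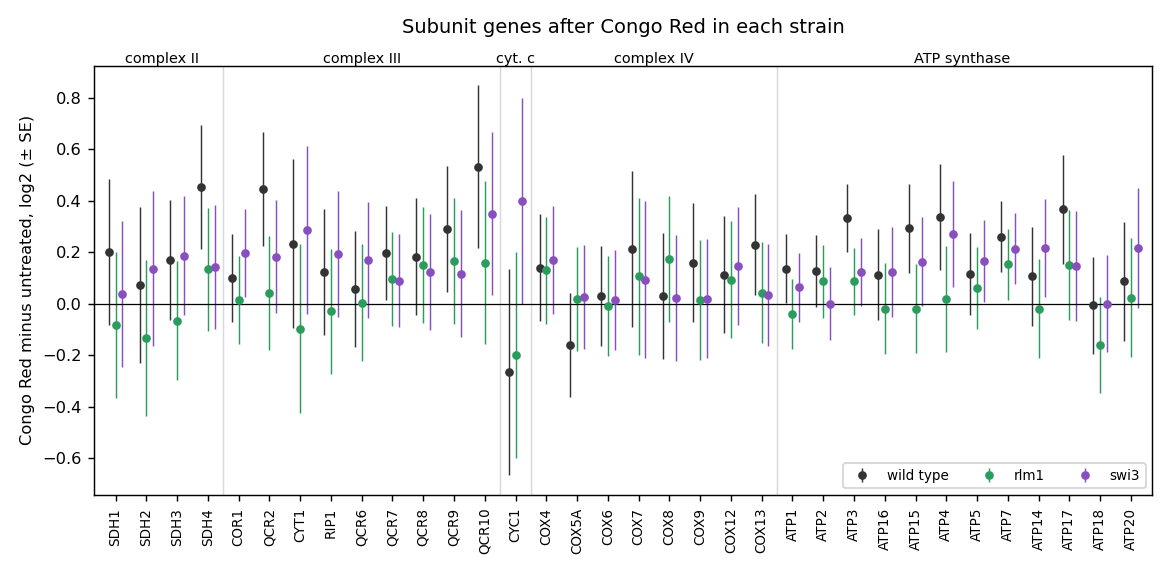
Congo Red minus untreated for each subunit gene on the log2 scale in wild type (black), rlm1 (green) and swi3 (purple), with ± SE of the fit and n = 3 arrays a group. Most points of the wild type and swi3 lie above 0, those of rlm1 scatter around it, and 0 of the 34 genes passed the test in any of the 3 strains.

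Whether the response differed between strains was tested as a difference of changes. For rlm1 against the wild type 0 of the 34 genes passed, with 0.318% of all features called. The median difference was -0.13, with 3 positive and 31 negative. For swi3 against the wild type 0 passed, with 0.106% called, and the median was -0.03, with 15 positive and 19 negative. None of the 34 had an unadjusted p under 0.05 in either. The medians of all features are not set beside these, so a difference from the background cannot be read from them. With arrays paired by number, the rlm1 change was lower than that of the wild type for 4 genes, against 5.8% of all features: QCR2 at -0.41 (adjusted p = 0.031), CYT1 at -0.33 (adjusted p = 0.017), ATP3 at -0.25 (adjusted p = 0.039) and ATP4 at -0.32 (adjusted p = 0.030). For swi3 it was higher for 1 gene, CYC1, by 0.67 (adjusted p = 0.034), against 1.52% of all features.

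Between rlm1 and the wild type, 0 of the 34 genes passed in untreated cells, with 0.0707% of all features called, and 1 had an unadjusted p under 0.05. With Congo Red 0 passed, with 3.64% of all features called, and 6 had an unadjusted p under 0.05. The medians of the 34 were -0.19 and -0.26, close to those of all features at -0.27 and -0.26. In untreated cells the rlm1 arrays lay below all wild-type arrays for 3 genes and above for 0, against 25.1% and 0.76% of all features. With the dye they lay below for 8 and above for 0, against 29.2% and 1.89%.

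Leaving out both rlm1 arrays numbered 1 moved the medians to 0.09 and -0.07. CYT1 was then higher in rlm1 in both media, by 1.01 (adjusted p = 0.036) untreated and by 0.65 (adjusted p = 0.018) with the dye. It was the 1 subunit gene called higher in each medium, against 0.053% and 6.01% of all features. With Congo Red 4 genes were lower, against 11.3% of all features: QCR2 at -0.60 (adjusted p = 0.014), ATP3 at -0.36 (adjusted p = 0.00077), ATP15 at -0.39 (adjusted p = 0.017) and ATP7 at -0.38 (adjusted p = 0.00091). QCR2 read 11.41, 11.41 and 11.17 on the treated wild-type arrays and 10.68 and 10.78 on the rlm1 arrays numbered 2 and 3. These fits have 2 rlm1 arrays per medium and take the spread from all remaining groups. CYT1 read lowest in swi3, intermediate in the wild type and highest on the rlm1 arrays numbered 2 and 3. On the rlm1 arrays numbered 1 it read 9.56 untreated and 9.54 treated, below all wild-type arrays of the same medium. Its swi3 difference did not pass in the main fit, after quantile normalization or with arrays centred. All swi3 arrays lay below the wild type for 66.2% of all features untreated and 58.4% with the dye.

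The array numbered 3 stood apart from the other arrays of its group for some of the subunit genes. The 4 complex II genes, QCR2, CYC1 and ATP3 were lowest on the array numbered 3 in all 4 groups of the wild type and swi3, which is 7 of 34 against 13.73% of all features. SDH1 was 0.43, 0.75, 0.65 and 0.58 lower there than the mean of the other arrays of its group, for the wild type untreated and treated and swi3 untreated and treated. CYC1 was lower by 0.61, 1.09, 0.28 and 0.44. For ATP3 the same differences were only -0.08, -0.01, -0.07 and -0.03, so it was lowest there by rank more than by size. QCR8, COX7, COX12, ATP1 and ATP4 were highest on that array in all 4 groups, which is 5 of 34, a share close to the 13.04% of all features. For SDH1 these shifts exceeded its Congo Red changes, which were 0.20 in the wild type and 0.04 in swi3. The labels do not say what an array number stands for.

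**Figure D5:**
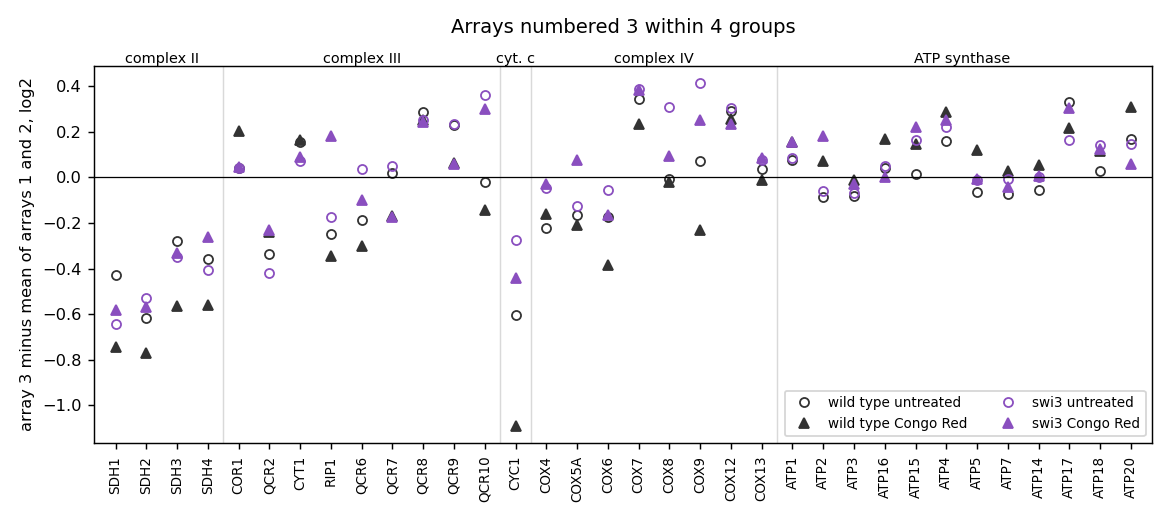
Level on the array numbered 3 minus the mean of the arrays numbered 1 and 2, in log2 units, for each subunit gene in the wild type (black) and swi3 (purple), untreated (open circles) and with Congo Red (triangles). The complex II genes, QCR2, CYC1, COX4, COX6 and ATP3 lie below 0 in all 4 groups. COR1, CYT1, QCR8, QCR9, COX7, COX12, ATP1, ATP4, ATP15, ATP17, ATP18 and ATP20 lie above it in all 4.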

How the data were processed

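Total RNA of 18 yeast cultures was hybridised to Affymetrix arrays. The deposited values are log2 probe set levels, and the submitters' processing notes name GCRMA. Neither its version nor the set of arrays normalized together is given in the sources used here. The table has 5814 probe sets, of which 98 are controls and were not tested. Of the rest, 5498 of 5716 had 1 gene symbol and 218 none. Symbols were updated through assembly R64 (12 changed). The probe set of highest mean was kept for a gene (49 dropped). A level of 4 on at least 3 arrays was required (8 removed), which left 5659 features.

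A mean per group was estimated by limma 3.58.1 (lmFit and eBayes, R 4.3.3) from the 18 arrays together, and p-values were adjusted over all features. The number of arrays limits the precision. The text names all 34 subunit genes, RLM1, SWI3, HAP4, COX5B and CYC7, and at most 5 called genes of a list and contrast with the largest changes. The members and lists were chosen with earlier results of these data known. No sequences are shown.

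Array numbers come from the sample titles, and the labels do not state what they mean. Deviations of same-numbered untreated and treated arrays correlated within each strain (r from 0.419 to 0.909 over all features), and the replicate block takes them as pairs. Some different numbers also correlated above 0.1, in rlm1 up to 0.871, so the check does not establish pairs. Alternatives were another normalization, centring, no filter, mean of probe sets, a trended and robust prior, array weights, the compared strains alone, each array left out, and both rlm1 arrays numbered 1 left out. A block by number across strains was added after seeing the data. Array weights used the gene-by-gene method because the default did not converge.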

Additional observations from a re-analysis of the deposited data

Results flagged for a closer look

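SHH3, a paralogue of SDH3 on the list of isoforms, responded differently to Congo Red in rlm1 and in the wild type by the test of the difference itself. It read 5.30, 4.99 and 5.06 in the untreated wild type and 6.81, 7.27 and 7.09 with the dye, and 5.40, 5.27 and 4.96 against 5.47, 4.99 and 5.06 in rlm1. The change in rlm1 minus that in the wild type was -1.98 (limma, adjusted p = 0.0013). SHH3 with the dye was also lower in swi3 than in the wild type, at -2.25 (adjusted p = 9.6e-07). However, SHH3 was already lower in untreated swi3, at -0.87 (adjusted p = 0.0042). SHH3 lies in the bin of lowest signal, where the median swi3 differences were -0.90 untreated and -0.85 with the dye. A low treated level was thus read in swi3 as well, but the part of that general shift in it was not tested. The change in swi3 minus that in the wild type did not pass the test. RLM1 gave -1.15 (adjusted p = 0.022) in the same test, and it is the gene mutated in rlm1, with levels of 4.53 to 5.05 on all rlm1 arrays.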

How the results depend on the processing

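The subunit genes kept a positive median difference between swi3 and the wild type under all alternatives run, but the counts of calls, higher and lower together, moved. For swi3 against the wild type, 7 untreated and 5 treated calls became 29 and 29 (quantile normalization), 30 and 31 (centring, with medians of 0.76 and 0.67), 30 and 22 (array weights), 26 and 23 (the compared strains alone), and 28 and 24 (without both rlm1 arrays numbered 1). Leaving out single arrays gave 1 to 14 untreated calls, with 1 without the wild-type or the swi3 untreated array numbered 2 and 14 without the rlm1 untreated array numbered 1. Treated calls ranged from 0, without the swi3 treated array numbered 2, to 13, without that rlm1 array. For the wild-type Congo Red response, 0 calls became 5 (quantile normalization, the compared strains alone, and without both rlm1 arrays numbered 1), 11 (array weights) and 13 (replicate block). Its replicate block gave 6 calls in swi3, and 4 and 1 for the differences of the rlm1 and swi3 responses from the wild type. Leaving out both rlm1 arrays numbered 1 together with the block, chosen after seeing the data, gave 15, 4, 3 and 1 for these. Array weights gave 1 call for the rlm1 response and 6 for its difference from the wild type. For rlm1 against the wild type, 0 untreated and 0 treated calls became 1 and 6 (quantile normalization), 8 and 13 (array weights), 1 and 5 (without both rlm1 arrays numbered 1), and 1 (centring) and 2 (trended and robust prior) treated. Leaving out single arrays gave 0 to 4 treated calls, and 0 in the 6 other comparisons. With array weights 2 differences between rlm1 and the wild type changed sign, COX12 untreated to 0.27 and COX5A treated to 0.17. Across strains, same-numbered arrays of the wild type and swi3 had r of 0.503, 0.0872 and 0.597 untreated and 0.670, 0.333 and 0.641 treated, and since 1 of these was under 0.1 they were not taken as pairs. A replicate block by number over the 3 strains, added after seeing the data, gave 14 untreated and 9 treated calls for swi3 and 0 and 4 for rlm1 against the wild type. In a fit of the wild type and swi3 alone it gave 29 and 28. The cause of these movements was not tested.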
